A study of Bos taurus with 48 samples.

Results

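The miR-10 and miR-196 families, microRNAs whose genes sit inside the HOX gene clusters, were followed through bovine mammary parenchyma, mammary fat pad and liver. The members were taken by name as bta-miR-10a, bta-miR-10b, any copy of bta-miR-196a, and bta-miR-196b, whatever their values. This gave 5 of the 524 microRNAs in the tables, because miR-196a is listed as 2 copies, bta-miR-196a-1 and bta-miR-196a-2. The prefix for the cow is left out from here on. In the RefSeq annotation of the ARS-UCD2.0 assembly, used here for gene order only, MIR10A lies inside the HOXB3 record between HOXB5 and HOXB4. MIR10B lies inside the HOXD4 record between HOXD3 and HOXD8. MIR196A-1 lies inside the HOXB9 record with HOXB13 and HOXB8 as neighbours, MIR196A-2 lies between HOXC9 and HOXC10, and MIR196B lies between HOXA10 and HOXA9.

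HOX genes encode homeobox transcription factors, and their order along a cluster follows their order of expression from head to tail of the embryo, a register that many connective tissue cells keep in adult life. The miR-10 genes lie near HOX genes of more anterior expression, and the miR-196 genes lie near HOX genes of more posterior expression. Both families act back on HOX messages, as in the cleavage of the HOXB8 transcript guided by miR-196, and miR-196a is also known from fat, where it acts on HOXC8 in adipocyte precursors.

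Small RNA was sequenced from 48 bovine tissue samples that were kept in RNAlater after slaughter. The labels give mammary parenchyma (the part of the gland that holds the epithelial ducts), mammary fat pad (the fatty stroma into which the ducts grow) and liver. Each tissue came from animals given milk replacer without limit (labelled ad libitum, 6 per tissue), from animals given a restricted amount of milk replacer (labelled restricted, 6 per tissue) and from animals labelled control (3 parenchyma, 4 fat pad and 5 liver samples). The labels give neither the age, breed and sex of the animals nor the diet of the controls, and nothing in them states that samples of a group came from separate animals, so p-values measure the spread between these samples. All values are read counts that the authors divided by a size factor for each library, so a value compares 1 microRNA between libraries. Levels of different microRNAs also carry the efficiency with which each ligates to the adaptors, and are given as reads, not as molecules.

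The libraries held 6193678 to 11291532 assigned reads in parenchyma, 2123962 to 9522666 in fat pad and 826776 to 5146724 in liver. In every library the smallest value above 0 equalled 6 reads, so a microRNA with fewer reads is listed at 0. Epithelial microRNAs were checked against the tissue labels, and earlier results of these data had already shown the control parenchyma samples to be low in them. The 9 matched microRNAs of an epithelial list (the miR-200 family and others) summed to 61328 to 110804 in the 12 parenchyma libraries of the milk replacer groups, but to 92.5 to 421 in the 3 control libraries labelled parenchyma, where miR-429 was at 0 in each. The fat pad libraries of the milk replacer groups held 17.4 to 436 of the same sum. The control libraries labelled parenchyma therefore lacked the microRNAs of the tissue they are named for, and replicate 18 of them also held 87995 of a sum of 5 immune microRNAs, against 3589 and 4180 in the other two and 2023 to 4947 in the milk replacer groups. The liver libraries carried their label, with miR-122, the hepatocyte microRNA, at 284363 to 987770. Results that rest on these 3 libraries are given with that in view.

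miR-10b was the most abundant member in both mammary tissues. In the 12 parenchyma libraries of the milk replacer groups its value ran from 17472 through a median of 25323 to 34611, which placed its group mean 27th among 490 microRNAs above 0. In the 12 fat pad libraries of the same groups it ran from 78555 through 120628 to 141307, and its mean stood 9th among 413. In liver it was a minor microRNA, from 279 through 692 to 2234 over all 17 libraries, with a mean in rank 146 of 399. No mammary library came near the liver range.

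miR-10a, the sister gene in the HOXB cluster, was much less set apart between parenchyma and liver. In parenchyma of the milk replacer groups it ran from 2330 through 3804 to 6214, and in the 17 livers from 1035 through 2776 to 4629, so that these ranges overlapped for most of their length. In fat pad it ran from 12388 through 19069 to 26601 and lay above every parenchyma library of those groups and every liver library. Liver thus carried more reads of miR-10a than of miR-10b, whereas both mammary tissues carried more of miR-10b.

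The miR-196 members were found in every mammary library and were listed at 0 in 17 of 17 liver libraries. In parenchyma of the milk replacer groups miR-196b, the member in the HOXA cluster, ran from 370 through 887 to 1137. The copy in the HOXC cluster, miR-196a-2, ran from 143 through 221 to 367, and the copy in the HOXB cluster, miR-196a-1, ran from 74.1 through 112 to 198. In fat pad the order of miR-196b and miR-196a-2 was turned round, with miR-196a-2 at 1457, 2145 and 2408, miR-196b at 1105, 1416 and 1758, and miR-196a-1 at 673, 897 and 1117 (lowest, median and highest).

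**Figure D1:**
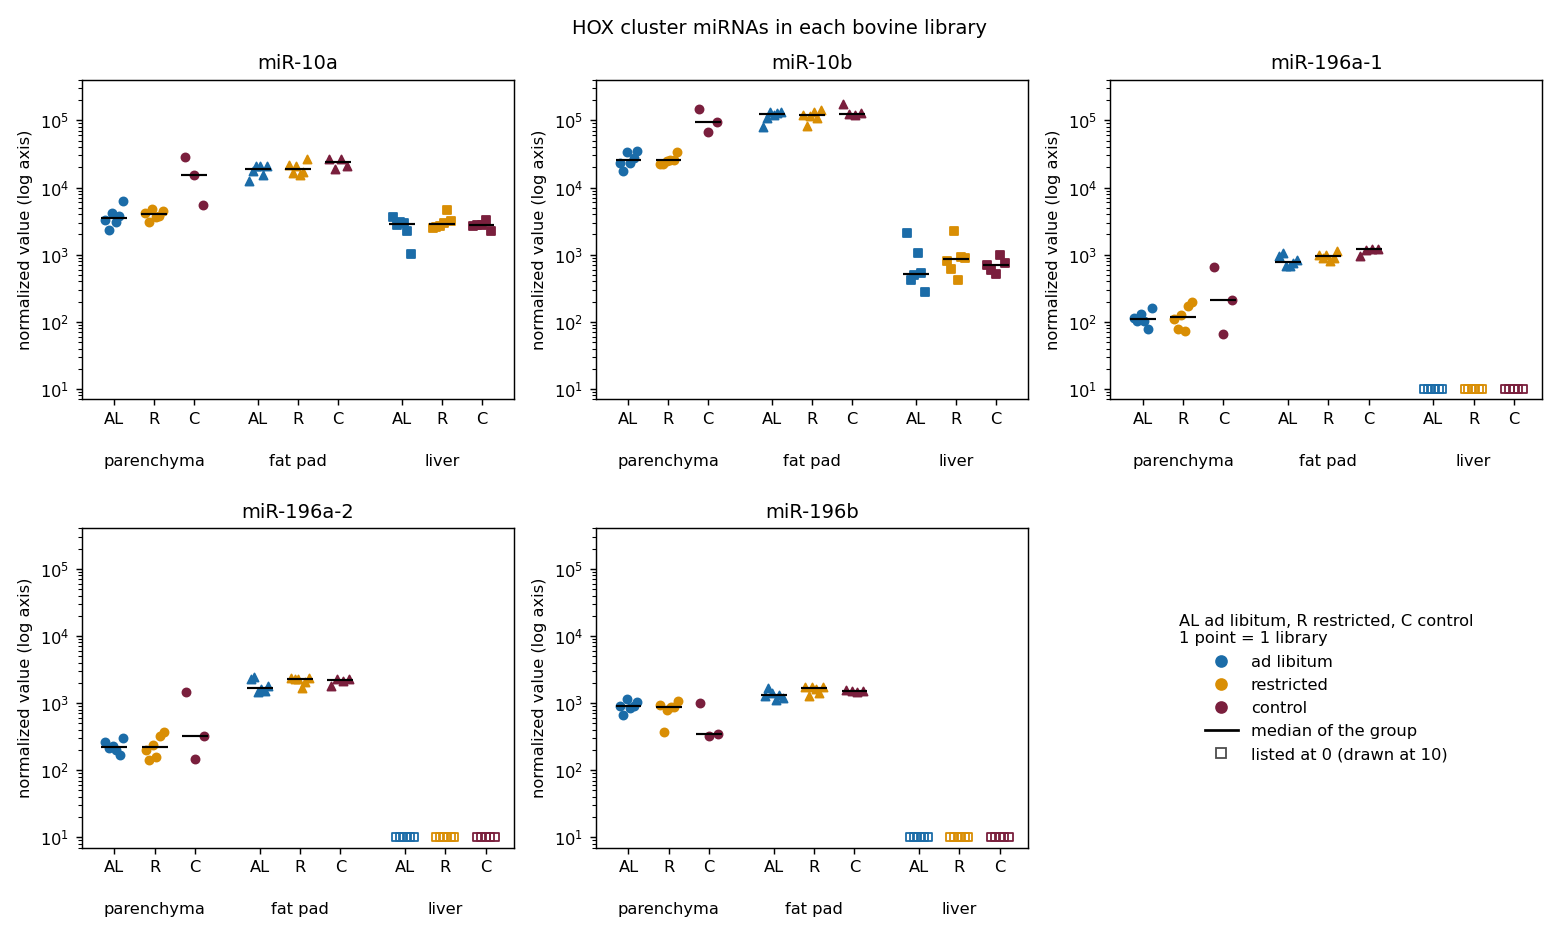
Deposited normalized read counts (log axis) of the 5 members in each library, by tissue and by label (AL ad libitum, R restricted, C control), with a line at each group's median and open squares at 10 for libraries listed at 0. Fat pad libraries lie above the parenchyma libraries of the milk replacer groups for 4 members and overlap them for miR-196b, the 17 liver libraries are listed at 0 for the 3 miR-196 panels, and the 3 control parenchyma libraries spread over a wide range.

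The mature sequences of miR-10a and miR-10b are near-identical, as are those of miR-196a and miR-196b, and the 2 copies of miR-196a can share the same reads. How reads that match more than 1 of them were divided in the deposited table is not given in the sources used here, so the split between copies is uncertain and the 2 values of miR-196a are not independent. Together the 5 members took 0.942% ± 0.164 (SD, n = 12) of the normalized reads in parenchyma of the milk replacer groups, 3.08% ± 0.394 (SD, n = 16) in fat pad and 0.0683% ± 0.0182 (SD, n = 17) in liver.

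All 5 members were lower in parenchyma than in fat pad in the milk replacer groups (12 and 12 libraries; limma on log2 of the value plus 1, Benjamini-Hochberg adjusted over the 336 microRNAs tested). Of those microRNAs, 32.4% were called lower and 49.7% higher in parenchyma, so a call by itself was common, and the size of the difference is the more informative value. miR-196a-2 was 8.70-fold lower (log2 difference −3.12 ± 0.15 SE, adjusted p = 2.31e-16) and miR-196a-1 was 7.53-fold lower (−2.91 ± 0.15, adjusted p = 1.56e-15). miR-10a was 4.86-fold lower (−2.28 ± 0.13, 95% confidence interval 4.02 to 5.87-fold, adjusted p = 1.59e-14) and miR-10b 4.45-fold lower (−2.15 ± 0.11, adjusted p = 2.32e-15). For these 4 members no parenchyma library reached the lowest fat pad library, which was the case in either direction for 33.3% of all microRNAs tested.

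miR-196b differed much less between the mammary tissues. It was 1.72-fold lower in parenchyma (log2 difference −0.79 ± 0.14 SE, 95% confidence interval 1.41 to 2.11-fold, limma adjusted p = 1.48e-05), and its groups overlapped. When every library was rescaled to the same sum of values, the median difference over all microRNAs moved by 0.32, from 0.37 to 0.70 on the log2 scale, and miR-196b moved to −0.32 with an adjusted p of 0.0326. Relative to those medians, miR-196b stood at −1.16 and −1.02, miR-10b at −2.53 and −2.39, and miR-196a-2 at −3.50 and −3.35 under the authors' size factors and the equal sums. Bulk tissue cannot tell fewer cells of a type from less RNA per cell, here or in any comparison that follows.

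Endothelial, adipocyte-linked and erythroid microRNAs moved with the members. The 2 arms of miR-126, which mark endothelium, had a median log2 difference of −2.15, and both were called lower in parenchyma. The 4 adipocyte-linked microRNAs other than miR-196a were all called lower, with a median of −2.0. Both erythroid microRNAs tested were called lower, with a median of −1.76, and of 5 immune microRNAs 3 were called higher and 1 lower, with a median of 1.32. All 9 epithelial microRNAs were called higher. The 8 microRNAs of the stromal and smooth muscle list did not move as a group, with 2 called higher, 4 called lower and a median of −0.31. The part of these cell types in the members' differences was not tested.

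Against liver, the contrast between the miR-10 genes was plain in the milk replacer groups (12 livers). miR-10b was 34.8-fold higher in parenchyma (log2 difference 5.12 ± 0.26 SE, limma adjusted p = 1.25e-15) and 155-fold higher in fat pad (7.28 ± 0.26, adjusted p = 3.87e-19), with no overlap between the groups. Calls of higher were made for 45.2% of all microRNAs in the parenchyma comparison and for 40.4% in the fat pad comparison, and 40.2% and 36.4% had groups that did not overlap. miR-10a was 6.83-fold higher in fat pad than in liver (2.77 ± 0.17, adjusted p = 3.98e-14). In parenchyma it was 1.40-fold higher (0.49 ± 0.18, 95% confidence interval 0.12 to 0.86 on the log2 scale, adjusted p = 0.0151), with overlapping groups. That difference was close to the median of 0.39 over all microRNAs, and with the log2 read total of each library in the model it was 0.25 with an adjusted p of 0.518. With libraries at equal sums it was 1.23, where the median of all microRNAs was 0.95. Both comparisons use the same liver libraries.

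For the miR-196 members only a lower bound can be given against liver, since each liver library was listed at 0 and 6 reads correspond to 5.68 to 37.2 value units there. The bound sets every liver at 6 reads per library and divides the mean mammary value by the mean of those liver values. In the milk replacer groups miR-196b was at least 55.6-fold higher in parenchyma and at least 93.8-fold higher in fat pad. miR-196a-2 was at least 15.0-fold higher in parenchyma and at least 128-fold higher in fat pad, and miR-196a-1 at least 7.72-fold and at least 56.7-fold higher. These members passed the filter on low values only through the mammary libraries, so that calls on them add nothing to the bounds. The values do not show that the miR-196 genes were silent in liver, only that each library held fewer than 6 reads of each.

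In the control groups fat pad again stood far above liver (4 and 5 libraries). miR-10b was 195-fold higher (log2 difference 7.61 ± 0.21 SE, limma adjusted p = 7.86e-11) and miR-10a 8.49-fold higher (3.09 ± 0.16, adjusted p = 2.35e-08), neither with overlap, where 30.7% of all microRNAs were called higher and 54.1% did not overlap. The bounds for miR-196a-1, miR-196a-2 and miR-196b in control fat pad were at least 119-fold, at least 223-fold and at least 158-fold higher. The control libraries labelled parenchyma, which lacked epithelial microRNAs, were at 140-fold for miR-10b (7.13 ± 0.37, adjusted p = 2.13e-07) and at 4.96-fold for miR-10a (2.31 ± 0.48, adjusted p = 0.00603) over the same 5 livers, where 10.7% were called higher and 27.6% did not overlap. With the log2 read total in that model miR-10a was 1.78 with an adjusted p of 0.906. Their bounds were at least 32.4-fold, at least 67.7-fold and at least 58.9-fold higher for the 3 miR-196 members in the same order.

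Between control parenchyma and control fat pad (3 and 4 libraries) none of the 5 members was called by limma, where 1.88% of all microRNAs were called in either direction (6 of 319, and 76 at an unadjusted p under 0.05). miR-10a was 28579, 15498 and 5519 in control parenchyma replicates 1, 2 and 18, and 26298, 19128, 27012 and 20927 in control fat pad replicates 2, 18, 19 and 21. miR-10b was 146029, 66166 and 95269 in the same parenchyma libraries and 177670, 124297, 119900 and 127198 in fat pad. Parenchyma replicate 1 lay above the highest fat pad library for miR-10a and inside the fat pad range for miR-10b, and the other two replicates fell below that range for both.

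The miR-196 members did not overlap between the control tissues, as was the case for 23.8% of all microRNAs. miR-196a-2 was 1468, 147 and 322 in the 3 parenchyma libraries and 1823, 2268, 2118 and 2318 in fat pad. miR-196b was 1015, 324 and 348 in parenchyma and 1541, 1533, 1460 and 1512 in fat pad, where its coefficient of variation was 2.41%. The log2 differences were −2.43 for miR-196a-1, −2.36 for miR-196a-2 and −1.64 for miR-196b (adjusted p = 0.0904, 0.0934 and 0.0904). For miR-10a it was −0.78, with a 95% confidence interval from −1.94 to 0.39. With the replicate number as a block, which keeps only replicates 2 and 18 of each tissue, both copies of miR-196a were called lower in parenchyma. The labels do not say that a number marks an animal, though each number shared between tissues carried the same treatment label. Without parenchyma replicate 1, the library nearest to fat pad in every member, 3 members were called, among them miR-196b at −2.17 (limma adjusted p = 0.00316) and miR-196a-1 at −3.25 (adjusted p = 0.00715), and 60 of all microRNAs were called in place of 6. That library held adipocyte-linked microRNAs at a mean log2 value of 11.67, against 11.64 in replicate 2 and 8.57 in replicate 18. The part of fat content in these differences was not tested.

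Ratios between members within a library do not depend on how the libraries were scaled. All 66 ratio comparisons were taken as a single family of permutation tests on log2 ratios (2-sided, Benjamini-Hochberg adjusted), of which 18 had an adjusted p below 0.05 and 25 an unadjusted p below 0.05. The ratio of miR-10b to miR-10a had a median of 7.15 (5.21 to 8.27) in parenchyma and 6.21 (4.96 to 8.69) in fat pad of the milk replacer groups, which overlapped (log2 difference 0.13, permutation p = 0.174, adjusted 0.328). In liver of those groups it was 0.256 (0.142 to 0.823), and no liver library reached 1. The log2 difference from liver was 4.63 for parenchyma and 4.50 for fat pad (permutation, adjusted p = 0.00022 for each). In control liver the ratio was 0.255 (0.189 to 0.344), so the excess of miR-10a in liver was present under both kinds of label.

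The other 9 ratios differed between parenchyma and fat pad of the milk replacer groups. The ratio of miR-196a-2 to miR-196b was 0.291 (0.181 to 0.386) in parenchyma and 1.39 (1.03 to 1.76) in fat pad, without overlap, a log2 difference of −2.33 (permutation p = 2e-05 with 100000 resamples, adjusted 0.00022). The ratio of miR-10b to miR-196b was 29.9 (24.1 to 61.4) in parenchyma and 78.2 (60.6 to 110) in fat pad, a log2 difference of −1.37 (permutation, adjusted p = 0.00022). The ratio of miR-10b to miR-196a-2 moved the other way, with 113 (78.8 to 164) in parenchyma and 56.4 (34.5 to 90.5) in fat pad (log2 difference 0.97, permutation, adjusted p = 0.000377). Relative to each other, then, miR-196a was the member most reduced in parenchyma, the miR-10 genes were intermediate and miR-196b was the least reduced. The 2 copies of miR-196a kept a nearly fixed ratio of 1.93 (1.73 to 2.25) and 2.27 (2.02 to 2.52), which still differed (log2 difference −0.21, permutation, adjusted p = 0.00106). Since the copies can share reads, the split between them is uncertain.

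**Figure D2:**
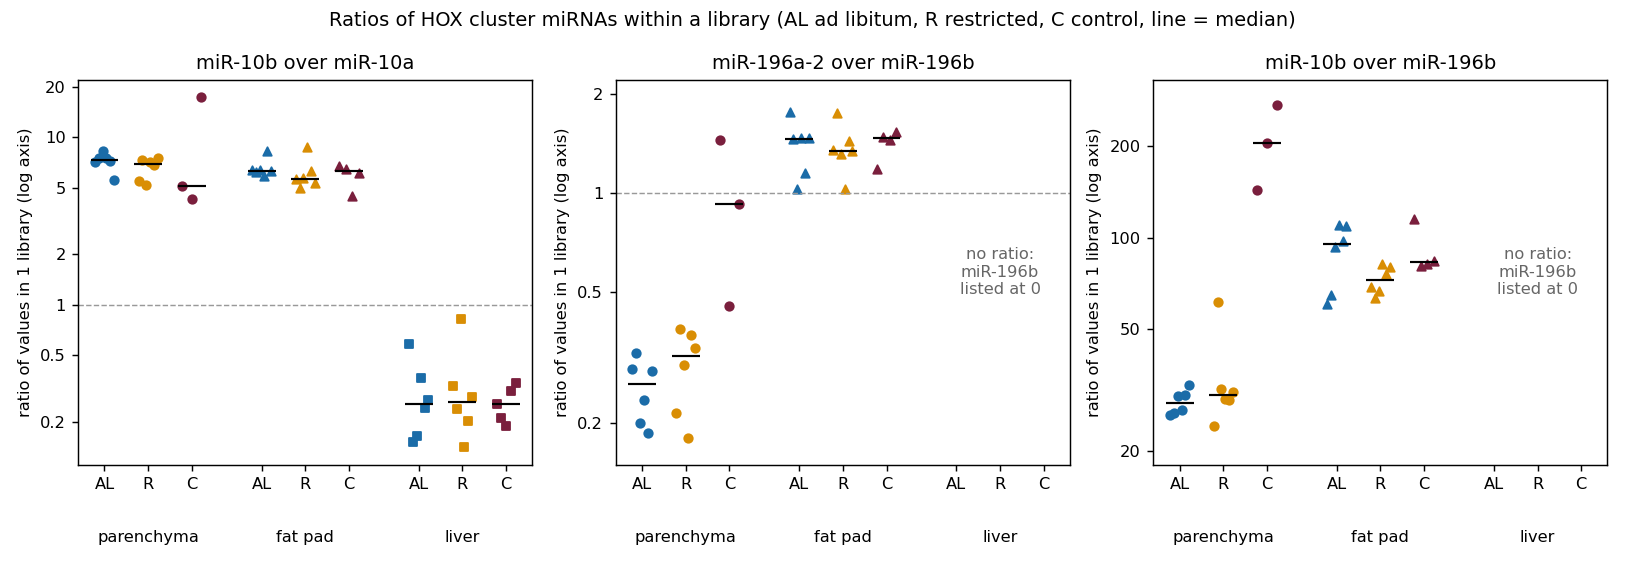
Ratios of deposited normalized read counts within each library (log axis) for miR-10b to miR-10a, miR-196a-2 to miR-196b, and miR-10b to miR-196b, by tissue and label, with a line at each group's median. The miR-10b to miR-10a ratio is below 1 in all 17 livers and above 4 in all 31 mammary libraries, while the miR-196a-2 to miR-196b ratio is below 1 in the 12 parenchyma libraries of the milk replacer groups and above 1 in all 16 fat pad libraries.

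In the control libraries labelled parenchyma the ratio of miR-196a-2 to miR-196b was 1.45, 0.455 and 0.927 (replicates 1, 2 and 18), all above the highest parenchyma library of the milk replacer groups. The ratio of miR-10b to miR-196b was 144, 204 and 274, again above all 12. The ratio of miR-10b to miR-10a was 5.11, 4.27 and 17.3, with replicate 18, the library of high immune microRNAs, above every other library. Against the milk replacer groups, 5 of 10 ratios passed the adjusted threshold in parenchyma. miR-10b to miR-196b differed by −2.70, miR-10a to miR-196b by −2.62 and miR-196a-2 to miR-196b by −1.66 on the log2 scale (exact permutation p = 0.0022 for each, the smallest these groups allow, adjusted 0.00967). miR-196a-1 to miR-196b (−1.64, exact permutation, adjusted p = 0.0181) failed without control replicate 1 or 18, and miR-10b to miR-196a-1 (−1.06, adjusted p = 0.0484) failed in 12 of 15 fits that each left out a library, with adjusted p up to 0.269. Between the control tissues 0 of 10 ratios passed, and 4 of them reached the smallest exact p of 0.0286 that 3 against 4 libraries allow (adjusted 0.0754).

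The amount of milk replacer left no difference in the members that passed the test in any tissue. In parenchyma miR-10b was 23356, 17472, 34356, 23288, 27343 and 34611 ad libitum and 22553, 22712, 24906, 25739, 25843 and 33709 under restriction, and miR-196b was 890, 657, 1137, 858, 898 and 1050 against 934, 370, 783, 868, 883 and 1081. The groups overlapped for every member. The log2 difference, ad libitum minus restricted, was 0.02 for miR-10b (95% confidence interval −0.36 to 0.40, limma adjusted p = 0.976), −0.12 for miR-10a (−0.58 to 0.34) and 0.21 for miR-196b (−0.31 to 0.73). Differences of up to about these bounds are not excluded by 6 libraries a group. Of all 333 microRNAs tested in parenchyma, 0% were called by limma, and 11 had an unadjusted p under 0.05.

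In fat pad, where 16.4% of all microRNAs were called between ad libitum and restricted, no member was. miR-196b had medians of 1297 ad libitum (1105 to 1658) and 1687 under restriction (1286 to 1758), a log2 difference of −0.27 (95% confidence interval −0.53 to −0.00, limma adjusted p = 0.155). miR-196a-2 had medians of 1692 and 2271 and a log2 difference of −0.25 (−0.57 to 0.07), and miR-196a-1 had medians of 787 and 939 and a difference of −0.22 (−0.51 to 0.07). The groups overlapped for each of them, where 8.52% of all microRNAs did not. miR-10b was at −0.01 and miR-10a at −0.12. In liver miR-10a had medians of 2852 and 2818 and miR-10b of 518 and 860, with log2 differences of −0.31 (−0.91 to 0.28) and −0.41 (−1.38 to 0.55) and an adjusted p of 0.970 for both. In liver 0% of 308 microRNAs were called by limma, 12 had an unadjusted p under 0.05, and 0.325% did not overlap. The effect of the amount was not called different between tissues for any member by the limma interaction test, where 0% of all microRNAs were called with parenchyma and 0.306% between fat pad and liver. None of the 21 ratios tested between ad libitum and restricted passed either.

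The milk replacer groups and the control group differed in the members mainly through the control libraries labelled parenchyma. miR-10b was 3.77-fold lower in the 12 milk replacer parenchyma libraries than in the 3 controls (log2 difference −1.91 ± 0.25 SE, 95% confidence interval 2.63 to 5.39-fold, limma adjusted p = 7.45e-06), without overlap. miR-10a was 3.55-fold lower (−1.83 ± 0.37, 2.08 to 6.08-fold, adjusted p = 0.000537), with an overlap made by control replicate 18. Of all 339 microRNAs, 45.4% were called in either direction, 15.3% were called lower and 22.4% did not overlap. With libraries at equal sums the median of all microRNAs went from 0.13 to 0.42, and miR-10b stood at −2.05 and −2.0 relative to it.

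The miR-196 members were not called in that comparison. miR-196b was higher in value in the milk replacer groups (0.79, 95% confidence interval 0.04 to 1.53, limma adjusted p = 0.0800), and miR-196a-1 and miR-196a-2 were lower in value (−0.85 and −0.87, adjusted p = 0.170 and 0.156). Each hung on single libraries. Without control replicate 2 the 2 copies of miR-196a were called lower (−1.67 and −1.61, adjusted p = 0.00448 and 0.00773), and without control replicate 1 they were at −0.03 and 0.05, while miR-196b was called higher (1.32, adjusted p = 0.00395). In the same comparison all 9 epithelial microRNAs were higher in the milk replacer groups, with a median log2 difference of 8.62, and both arms of miR-126 were lower (−2.05 and −1.74). The 8 microRNAs of the stromal and smooth muscle list did not move in 1 direction. Among them miR-143 and miR-145 were lower (−1.74 and −1.54), and miR-199a-1-3p and miR-21-5p were higher (0.89 and 1.11). The tissue makeup of these libraries and the milk replacer cannot be told apart.

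In fat pad no member was called between the milk replacer groups and the 4 controls, where 11% of all microRNAs were called and 3.99% did not overlap. The log2 differences were −0.32 for miR-10a, −0.24 for miR-10b, −0.37 for miR-196a-1, −0.11 for miR-196a-2 and −0.06 for miR-196b, and miR-196a-1 came closest to the threshold (limma adjusted p = 0.0735). It passed without ad libitum replicate 6 or without control replicate 2, with adjusted p as low as 0.0422. The ratio of the 2 miR-196a copies was higher in the milk replacer groups, at 2.27 (2.02 to 2.52) against 1.76 to 1.94 (log2 difference 0.26, exact permutation p = 0.000549, the smallest these groups allow, adjusted 0.0033), and was the only 1 of 10 ratios to pass. The copies can share reads, so a change in either copy cannot be told apart from a change in how reads were divided. In liver miR-10a differed by −0.01 (−0.49 to 0.47) and miR-10b by 0.09 (−0.71 to 0.90), where 6.8% of all microRNAs were called.

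**Figure D3:**
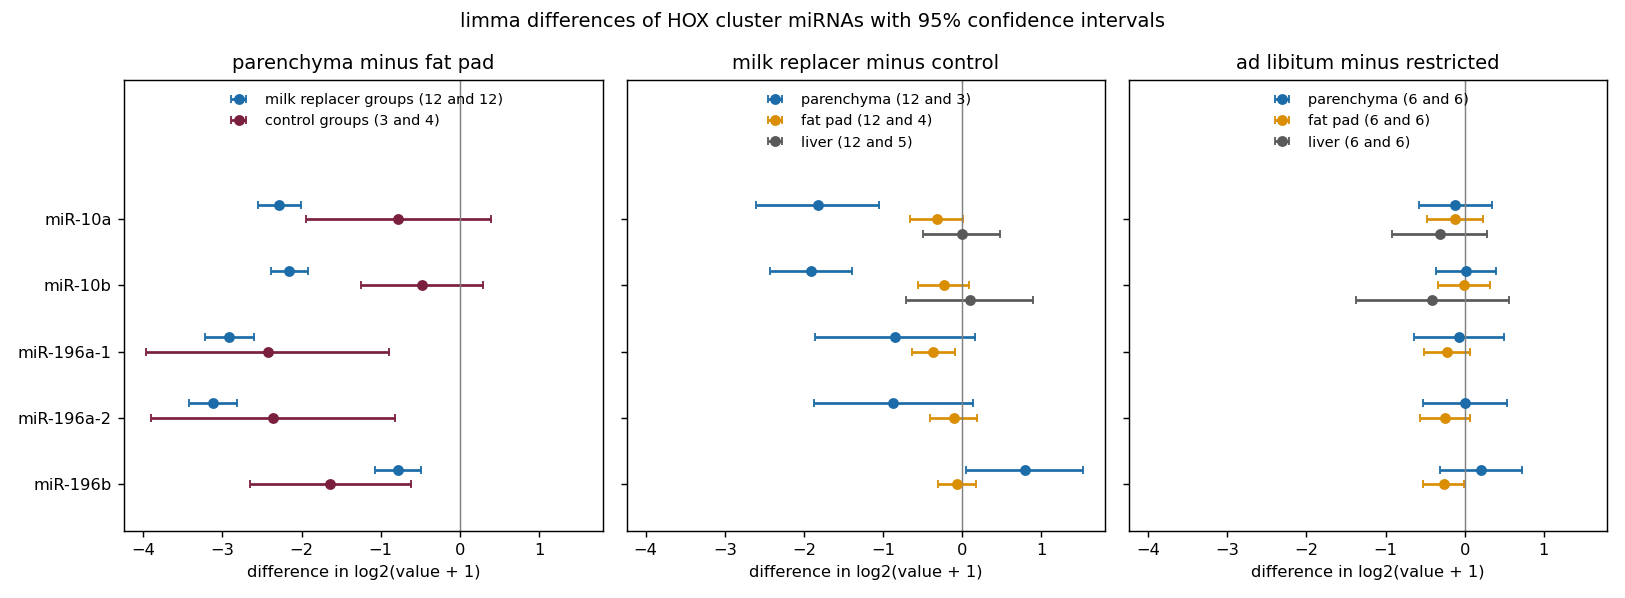
limma log2 differences with 95% confidence intervals (x axis) for each member, in panels for parenchyma minus fat pad, milk replacer minus control in each tissue, and ad libitum minus restricted in each tissue. In the milk replacer groups all 5 members lie below 0 between the mammary tissues, with miR-196b at −0.79 nearest to 0, while the intervals of ad libitum minus restricted reach 0 to 2 decimals or cross it for every member tested.

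The difference between the milk replacer groups and the controls was itself tested between tissues. For miR-10a it was more negative in parenchyma than in fat pad by 1.50 on the log2 scale (−1.50 ± 0.39 SE, limma adjusted p = 0.0035) and for miR-10b by 1.68 (−1.68 ± 0.28). Calls of lower were made for 13.1% of all microRNAs. Set against liver, the parenchyma difference was −1.82 for miR-10a (adjusted p = 0.0009) and −2.01 for miR-10b (adjusted p = 0.0023), where 13.7% were called lower. Between fat pad and liver neither gene was called (−0.32 and −0.33, adjusted p = 0.556 and 0.749), where 9.85% of all were called. The parenchyma terms rest on the 3 control libraries without epithelial microRNAs, and their part in the result was not tested. For miR-196b the term between parenchyma and fat pad was 0.85 (adjusted p = 0.0576), and for miR-196a-1 and miR-196a-2 it was −0.48 and −0.76 (adjusted p = 0.489 and 0.240), but without control parenchyma replicate 2 both were called (−1.30 and −1.50, adjusted p = 0.0117 and 0.00814).

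Relatives of miR-10 outside the HOX clusters (miR-99 and miR-100), and miR-125, which is encoded beside them, differed less between the mammary tissues. Among miR-99a-5p, miR-99b, miR-100, miR-125a and miR-125b-1, 3 were called lower and 1 higher in parenchyma than in fat pad of the milk replacer groups, with a median log2 difference of −0.25, against −2.28 and −2.15 for miR-10a and miR-10b. miR-125b-1 had the largest shift among them, at −0.53 (limma adjusted p = 0.000242), and miR-99b was higher at 0.39 (adjusted p = 0.00124). Against liver, 4 of 5 relatives were called higher in parenchyma and 5 of 5 in fat pad, with medians of 1.15 and 1.07. The stromal and smooth muscle list had 4 called higher and 3 lower in parenchyma against liver (median 0.66) and 5 higher and 3 lower in fat pad (median 1.14). miR-10b, at 5.12 and 7.28, lay beyond the medians of both lists, which do not show how far single microRNAs of the lists differed. Among the 5 non-members most like miR-10b over the 48 samples were miR-199b of the stromal list (r = 0.93) and the relative miR-99a-5p (r = 0.91).

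Across the 31 mammary libraries miR-10b and miR-196b can be set beside the marker lists directly. The mean log2 value of the endothelial list was 12.54 to 13.91 in parenchyma of the milk replacer groups, 14.67 to 15.77 in fat pad of those groups, and 15.42, 14.36 and 15.57 in the 3 control parenchyma libraries. The stromal and smooth muscle list was 14.88 to 15.34, 15.04 to 15.56, and 15.15, 15.42 and 14.56 in the same libraries. On the endothelial scale replicates 1 and 18 of the control parenchyma libraries lay inside the fat pad range, and replicate 2 lay between the ranges of the 2 tissues. On the scale of miR-10b they were at 146029, 66166 and 95269. Replicate 2 lay below the lowest fat pad library of the milk replacer groups (78555) and above the highest parenchyma library of those groups (34611). miR-10a, at 28579, 15498 and 5519 in the same 3 libraries, placed them otherwise. Replicate 2 lay inside its fat pad range of the milk replacer groups (12388 to 26601), and replicate 18 inside its parenchyma range (2330 to 6214). For miR-196b all 3 control parenchyma libraries lay below every fat pad library. Of these, 2, at 324 and 348, also lay below the lowest of the 12 parenchyma libraries of the milk replacer groups, which was at 370. The part of endothelial cells in these values was not tested.

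**Figure D4:**
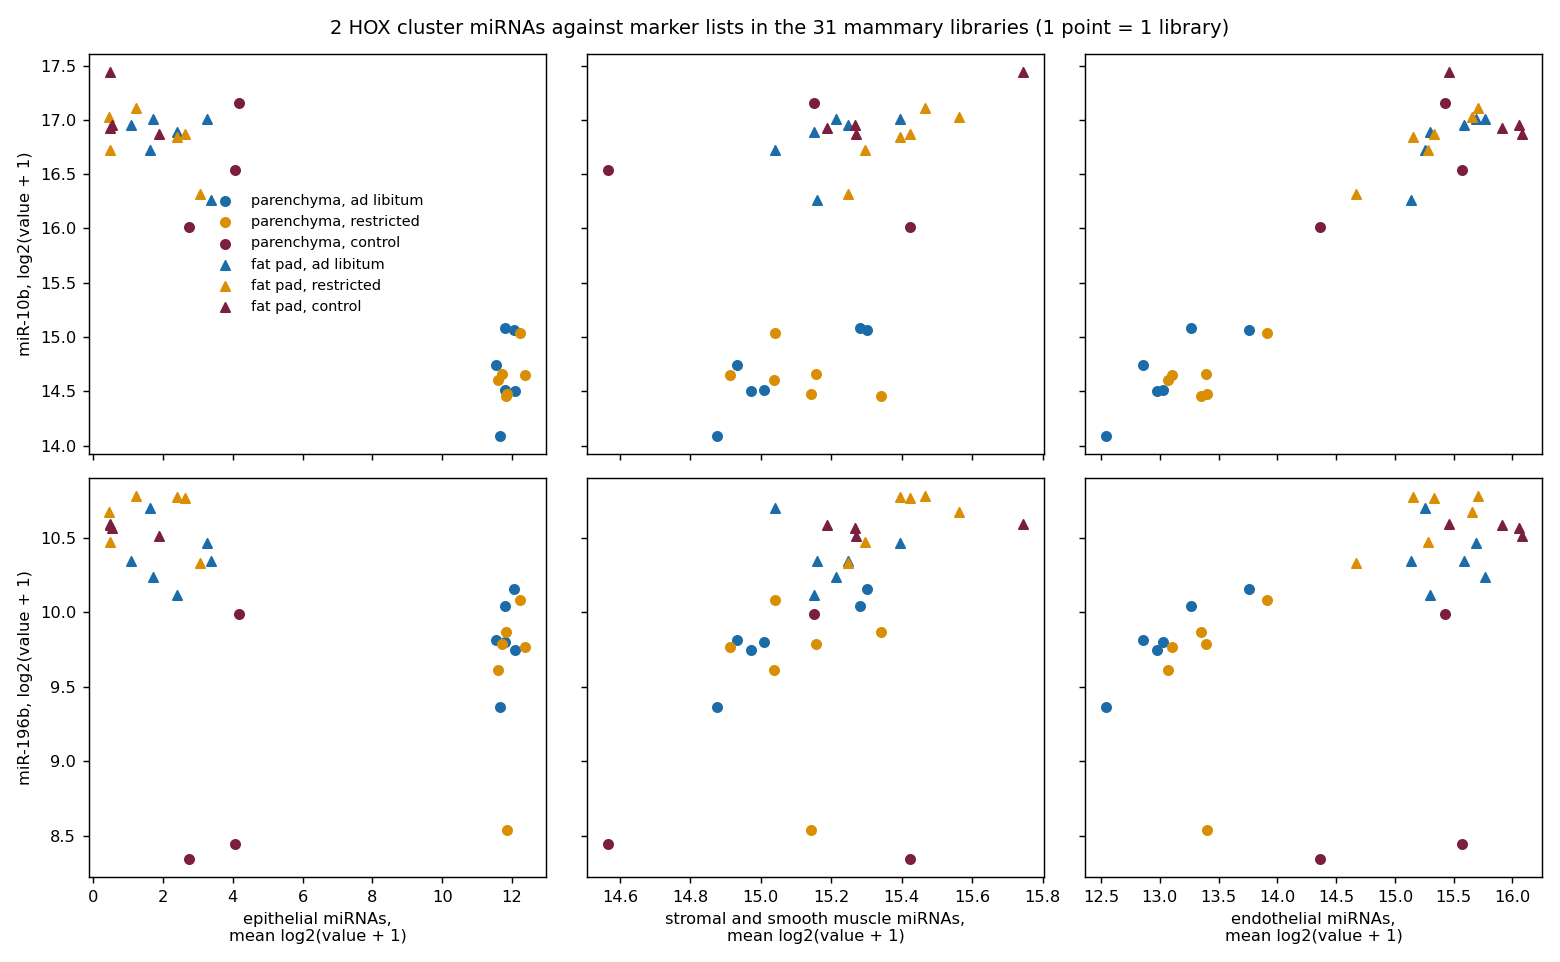
log2 of the value plus 1 of miR-10b and of miR-196b (y axes) against the mean log2 value of the epithelial, the stromal and smooth muscle, and the endothelial marker lists (x axes) in 31 mammary libraries, with symbols for tissue and label. Epithelial values part the 12 parenchyma libraries of the milk replacer groups (11.54 to 12.38) from the 3 control parenchyma libraries (2.73 to 4.17), of which 2 lie within the range of the fat pad libraries for miR-10b and none does for miR-196b, where all 3 lie below it.

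The microRNAs outside the 5 members whose pattern was most like each of them were found by Pearson correlation of log2 values over all 48 samples, as a description that the contrast between tissues dominates. Among the members themselves these correlations were higher for miR-10b, at 0.98 with each copy of miR-196a and 0.96 with miR-196b, and lower for miR-10a, at 0.84 with miR-10b and 0.71 with miR-196b. The miR-196 members, all listed at 0 in liver, had correlations of 0.976 to 0.9995 with each other. The non-members most like miR-10b were miR-2483-5p, miR-199b, miR-1468, miR-99a-5p and miR-503-3p (r from 0.93 to 0.90). For miR-10a they were miR-1468, miR-2483-3p, miR-23a, miR-195 and let-7e (0.93 to 0.86), and only miR-1468 stood in both lists. The nearest non-member to miR-196a-2 was miR-2483-5p (0.95) and that to miR-196b was miR-503-3p (0.94). Within groups, after each group's mean was taken out, miR-10a went most with miR-100 (0.65 over 48 samples) and miR-10b with miR-181d (0.65). In the 31 mammary libraries miR-196a-1 went with let-7f-2 and let-7f-1 (0.79 each), miR-196a-2 with miR-30b-3p (0.79) and miR-196b with miR-151-5p (0.75). The same deviations gave 0.97 between the copies of miR-196a, which can share reads, 0.75 between miR-196a-2 and miR-196b, 0.62 between miR-10b and miR-196b, and 0.48 between miR-10a and miR-10b (48 samples). All of these points share libraries, depth and scaling.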

How the data were processed

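The deposited table holds, for all 48 samples, read counts that the authors divided by a size factor for each library, recorded here as a score because its double-quoted lines could not be split for a check of the unit. Per the submitters' processing notes the tools were bcl2fastq, FastQC, Trim Galore and DESeq2. The paper describes miRDeep2, sRNAbench and the UEA workbench, run on a bovine genome and miRBase to compare these programs on a subset of the samples. Whether the deposited table was made with any of them, or on that build, is not stated there. The table also holds the authors' fold changes and p-values, which were not used. No column belonged to a sample outside the series (0 columns).

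Samples were grouped by the labels, and columns were matched to them by title. Tests used limma 3.58.1 in R 4.3.3 on log2 of the value plus 1, over microRNAs with a mean of at least 10 in the samples compared, with Benjamini-Hochberg adjustment at 0.05. Members with near-identical sequences can share reads, and how such reads were divided is not given. Ratios were tested in Python 3.11.15 (numpy 2.4.6, pandas 2.3.3) by permutation, exact in groups under 10 and with 100000 resamples otherwise. Size factors were recovered from the values' steps, with whole reads taken within 0.01. As the smallest value in every library equals 6 reads, no count model was fitted. No libraries were found to be the same, since the smallest chi-square per degree of freedom over 109 pairs within groups was 68.7. The members and the lists were chosen with earlier results of these data known. By rule the text names the members, the relatives and stromal microRNAs, counts the other marker lists, and gives for each member some of the 5 microRNAs of highest correlation. miR-126, miR-429 and miR-122 were named in addition, after their values were seen. Correlations of deviations for miR-196 used the 31 mammary samples only, a departure from the plan of 48, because liver is listed at 0. The fits were checked on simulated data. Alternatives were a pseudocount of 0.5 or 10, no filter or a mean of at least 50, equal sums with and without the members, the log2 read total as a covariate, the replicate number as a block, and leaving out each library in turn. The tissue comparisons of the milk replacer groups were also run on all samples, controls included, with the feeding group as a covariate.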

Additional observations from a re-analysis of the deposited data

Results flagged for a closer look

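A single library stood apart from its group, by the gap to its nearest neighbour over the group's range, in 15 of 84 groups of member values and ratios. The rule flags about 1 in 20 groups of independent, normally distributed values. These values and ratios share libraries, so that rate is only a rough guide. Control parenchyma, with 3 libraries, was too small for the rule and was not examined. In restricted parenchyma miR-10b was 33709 in replicate 16 (22553 to 25843 in the others), miR-10b to miR-196b was 61.4 in replicate 5 (24.1 to 31.8), and miR-196a-2 to miR-196a-1 was 2.12 in replicate 10 (1.84 to 1.94). In ad libitum parenchyma miR-10a to miR-196b was 5.92 in replicate 15 (3.54 to 4.23).

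In fat pad the control library of replicate 2 accounted for 5 of these. Its miR-10b was 177670 (119900 to 127198 in the others), its miR-196a-1 was lowest at 940 (1185 to 1206), and its ratio of miR-10b was 97.4 to miR-196a-2 (54.8 to 56.6), 189 to miR-196a-1 (99.4 to 106) and 115 to miR-196b (81.1 to 84.1). Its title carries another suffix than those of the other controls, which the labels do not explain. The ratio of miR-196a-2 to miR-196a-1 was lowest in control replicate 19, at 1.76 (1.91 to 1.94). miR-10b to miR-10a was 8.27 in ad libitum replicate 11 (5.83 to 6.35) and 8.69 in restricted replicate 10 (4.96 to 6.27).

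In restricted liver miR-10a was 4629 in replicate 13 (2506 to 3196), and replicate 8 held both the highest miR-10b, 2234 (414 to 937), and the highest ratio of miR-10b to miR-10a, 0.823 (0.142 to 0.326).

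The difference between milk replacer and control groups was not the same in all tissues by limma's interaction test. Parenchyma minus fat pad it was −1.50 for miR-10a and −1.68 for miR-10b, and parenchyma minus liver −1.82 for miR-10a and −2.01 for miR-10b. All 4 rest on the control parenchyma libraries that lacked epithelial microRNAs.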

How the results depend on the processing

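Depth limits liver most, where fewer than 6 reads are listed at 0. In limma, 256 of 261 member calls held under other settings and 601 of 601 without each library. Both include miR-196 against liver (all at 0), which tests nothing. All 66 ratios kept their call with a pseudocount of 10, and 341 of 364 calls held without each library. For control fat pad against control liver, miR-10b to miR-10a differed by 4.52 (exact permutation p = 0.00794, adjusted 0.0308). Without each library its adjusted p was 0.0589 to 0.0754. The smaller groups allow no lower exact p, so these fits could not pass 0.05. Parenchyma against fat pad in the controls called 0 members, but 2 with a replicate block and 0 to 3 without each library. In parenchyma against liver, control groups, the covariate for reads left 1. Milk replacer against control called 2 members in parenchyma (2 to 4 without each library) and 0 in fat pad (0 to 1), and the interaction between parenchyma and fat pad called 2 (2 to 4; 4 without parenchyma control replicate 2).

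Not every pair of samples with the same replicate number deviated together, and the labels do not say that a number marks an animal. Every number shared between tissues did carry the same treatment label in each of them. The main tests between tissues took the samples as unpaired. Over 14 shared numbers of parenchyma and fat pad the correlation of their deviations ran from −0.08 to 0.46 (median 0.12, 8 over 0.1), over 15 of parenchyma and liver from −0.13 to 0.36 (median 0.07, 5 over 0.1), and over 16 of fat pad and liver from −0.07 to 0.26 (median 0.13, 9 over 0.1). A sample correlated best with its own number in 3, 3 and 5 cases. With the block, miR-196a-1 and miR-196a-2 were called between the control mammary tissues (−3.15 and −3.21, adjusted p = 0.0352), and the interaction of miR-196b was 0.88 (adjusted p = 0.0382).

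Some differences that were not called changed sign, and were then not called either. With equal sums, with and without the members, ad libitum minus restricted was 0.0047 and 0.0056 for miR-196a-1 in parenchyma, and in fat pad 0.021 and 0.025 for miR-10a and 0.138 and 0.142 for miR-10b. Milk replacer minus control in fat pad was 0.066 and 0.064 for miR-196a-2 and 0.113 and 0.111 for miR-196b, and in liver −0.136 and −0.14 for miR-10b. The interaction of the control difference, fat pad minus liver, was 0.094 and 0.092 for miR-10a and 0.076 and 0.074 for miR-10b. With the covariate miR-10b was −0.024 in parenchyma and 0.075 in fat pad for the amount, and miR-10a was 0.052 in liver against control. Leaving out each library in turn, the amount in parenchyma ran from −0.27 to 0.0103 for miR-10a, from −0.064 to 0.13 for miR-10b, from −0.20 to 0.0775 for miR-196a-1, from −0.12 to 0.15 for miR-196a-2 and from −0.0042 to 0.30 for miR-196b, and in fat pad from −0.11 to 0.10 for miR-10b. Milk replacer minus control ran from −1.61 to 0.0454 for miR-196a-2 in parenchyma (called without control replicate 2), and in liver from −0.082 to 0.11 for miR-10a and from −0.0744 to 0.23 for miR-10b. Its interaction between parenchyma and fat pad ran from −1.30 to 0.34 for miR-196a-1 and from −1.50 to 0.16 for miR-196a-2, called without parenchyma control replicate 2. The cause was not tested.

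Counts over all microRNAs moved too. Parenchyma against fat pad in the controls called 6, but 3 with a pseudocount of 10, 13 with no filter, 2 with a mean of at least 50, 3 with equal sums without the members, 0 with the covariate, 21 with the block and 60 without parenchyma control replicate 1. Parenchyma against liver in the controls called 76, but 9 with the covariate, 50 with the block and 120 without parenchyma control replicate 18. The amount in fat pad called 50, but 28 and 33 without ad libitum replicate 9 or restricted replicate 8. Milk replacer against control called 33 in fat pad (20 without control replicate 19 or 21) and 21 in liver (13 with the covariate, 9 to 13 without single libraries), and its interaction between fat pad and liver 32 (13 with the covariate, 17 to 19 without single libraries). Equal sums moved the percentage of calls that were higher from 60.5 to 71.9 between the mammary tissues and from 59.8 to 74.4 for parenchyma against liver (milk replacer groups), from 66.2 to 76.4 and 66.7 to 80.8 for milk replacer against control in parenchyma and fat pad, from 23.8 to 4.35 in liver, and from 50 to 75 for the amount in fat pad.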
